A study of Mus musculus with 12 samples.

Results

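The CDK inhibitor genes of mouse were followed through c-Kit+ bone marrow cells in which Ezh2 was deleted, NRas was activated, or both. The 7 genes were chosen by name as the complete INK4 and CIP/KIP families, 7 of the 27998 gene names in the tables, by a rule that uses no measured value. Cdkn2a, Cdkn2b, Cdkn2c and Cdkn2d form the INK4 family, and Cdkn1a, Cdkn1b and Cdkn1c form the CIP/KIP family. Each gene was followed as UMIs (unique molecular identifiers, each marking 1 captured RNA molecule) and as CPM, counts per M UMIs (M, mega), where the total is that of the whole library or, for a cell class, that of the class within its library.

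INK4 proteins bind the kinases CDK4 and CDK6 and keep them from D-type cyclins, so that the retinoblastoma protein stays active and cells are held before S phase. CIP/KIP proteins bind cyclin and CDK complexes more widely: p21 (Cdkn1a) is a classic transcriptional target of p53, p27 (Cdkn1b) is governed largely by protein turnover, and p57 (Cdkn1c) is an imprinted gene known from quiescent stem cells. The Cdkn2a locus also encodes p19Arf, which stabilises p53 by binding MDM2, and in many tissues the neighbouring Cdkn2a and Cdkn2b genes are kept silent by Polycomb complexes, of which EZH2 is a histone methyltransferase.

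Single cells from marrow of C57BL/6 mice were captured with 10x Genomics 3′ chemistry, in 12 libraries of 4 genotypes at 3 time points. Every mouse was 8 to 12 weeks old at injection per the labels and received injections of pIpC, an RNA mimic that sets off interferon signalling and through it the Mx1-Cre recombinase. The paper gives a younger age at injection. WT mice carried no Mx1-Cre; E2-KO mice carried Mx1-Cre and Ezh2 f/f; G12D mice carried Mx1-Cre and 1 LSL-NRas G12D allele; and G12D/E2-KO mice carried all of these. Marrow was taken 2 weeks (T1), 2 months (T2) or 4 months (T3) after the injections, and c-Kit+ cells were enriched magnetically. Cell names inside the tables carry a time number 1 below that of the labels, and every time point below is that of the labels. Mx1-Cre recombines in blood cells and in other tissues, and its presence cannot be told apart from the mutant alleles in any comparison with WT. There was 1 library per genotype and time point, so the time points served as the replicates, and p-values measure the spread between these libraries.

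Libraries held 12.6 to 23.6 M UMIs. The G12D T1 and G12D/E2-KO T1 tables shared 2896 cells, which is 51.3% of the 5648 cells of the first and 95.1% of the 3044 cells of the second. Ezh2 in the shared cells stood at 20.9 CPM, near the 20.7 CPM of G12D/E2-KO T1, against 86.3 CPM in the 2752 G12D T1 cells without a match, and the shared cells were counted only in G12D/E2-KO T1. Cells were matched by similarity of expression with a limit of 0.9. Cells of this pair without a match reached 0.8967, against at most 0.8525 in the other pairs of libraries. Whether further shared cells remain in G12D T1 was not tested. Over the cells kept, Ezh2 was at 103 to 133 CPM in WT, 81.7 to 103 in G12D, 27.7 to 34.6 in E2-KO and 20.7 to 25.3 in G12D/E2-KO. Cells were given a class by marker genes: 29411 of 32701 cells fell into 13 classes, 3.74% of all cells lay near the margin between classes, and clustering gave the same class to 90.6% of the 28577 cells with a class by both. By class this share was 98.4% in late granulocytes, 95.7% in B lymphoid cells and 94.2% in late erythroid cells, but 73.5% in dendritic cells, 72.5% in promonocytes, 61.7% in megakaryocyte-erythroid progenitors, 34.6% in macrophages and 0% in basophils and mast cells. In cells gated as B lymphoid the B lineage markers Vpreb3, Igll1, Vpreb1, Cd79a and Ebf1 led, in dendritic cells (DC) Cd74 and H2-Aa led, and late granulocytes (late GN) were led by Ltf and Ngp. In all-cell values, fewer cells of a type and less RNA per cell cannot be told apart.

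Cdkn2a (ENSMUSG00000044303) lies on the minus strand of GRCm38 at chr4:89274471-89294653, and Cdkn2b (ENSMUSG00000073802) follows at chr4:89306299-89311039, 11645 bases away. The 2 coding transcripts of Cdkn2a have RefSeq starts 12427 bases apart, at a first exon specific to p19Arf and at one specific to p16Ink4a, and share their last exon, which begins at position 89274774 on the minus strand. Reads of the 3′ ends therefore cannot tell the INK4 product from the ARF product, and Cdkn2a below means both. The stretches before the 3 starts are shown because this locus had the largest fold between genotypes among the 7 genes, with each CpG, the dinucleotide that can be methylated in mammals, in capitals (RefSeq, GRCm38.p6, minus strand, 5′ to 3′, ending where the annotated first exon begins).
Cdkn2a, p19Arf start, chr4:89294654-89294869: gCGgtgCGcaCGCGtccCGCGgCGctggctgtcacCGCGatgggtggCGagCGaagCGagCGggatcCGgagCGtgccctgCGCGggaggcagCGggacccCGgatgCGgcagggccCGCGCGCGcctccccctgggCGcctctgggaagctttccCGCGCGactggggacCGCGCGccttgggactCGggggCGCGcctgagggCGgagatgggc
Cdkn2a, p16Ink4a start, chr4:89282193-89282442: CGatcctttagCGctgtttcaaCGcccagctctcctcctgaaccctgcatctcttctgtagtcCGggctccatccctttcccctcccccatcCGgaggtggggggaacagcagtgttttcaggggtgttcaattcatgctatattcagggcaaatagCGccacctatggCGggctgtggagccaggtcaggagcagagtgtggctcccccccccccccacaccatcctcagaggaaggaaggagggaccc
Cdkn2b start, chr4:89311040-89311282: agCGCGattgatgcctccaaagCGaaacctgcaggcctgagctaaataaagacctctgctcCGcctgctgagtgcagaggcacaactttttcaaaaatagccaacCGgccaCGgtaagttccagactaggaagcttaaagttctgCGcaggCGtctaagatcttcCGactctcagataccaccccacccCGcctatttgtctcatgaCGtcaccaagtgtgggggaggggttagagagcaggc
In windows from 250 bases before to 50 after the RefSeq start, the p19Arf window held 45 CpG, and 98.4% of 32851 windows of all genes held as many or fewer, while the p16Ink4a window held 12 and the Cdkn2b window 18 (median of all windows 7). The p16Ink4a stretch lies in the first intron of the p19Arf transcript.

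Cdkn2a was nearly silent wherever Ezh2 was intact and was detected in every library with the deletion. In WT, T1, T2 and T3 held 2, 2 and 0 Cdkn2a UMIs (0.12, 0.08 and 0 CPM). In E2-KO they held 116, 196 and 159 UMIs (6.11, 9.09 and 12.6 CPM). All 3 E2-KO libraries lay above all 3 WT libraries. In G12D there were 5, 4 and 4 UMIs (0.25, 0.23 and 0.24 CPM), and in G12D/E2-KO 153, 68 and 6 UMIs (6.87, 3.66 and 0.39 CPM). Each G12D/E2-KO library lay above every G12D library, though at T3 the gap was that between 6 and 4 UMIs.

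**Figure D1:**
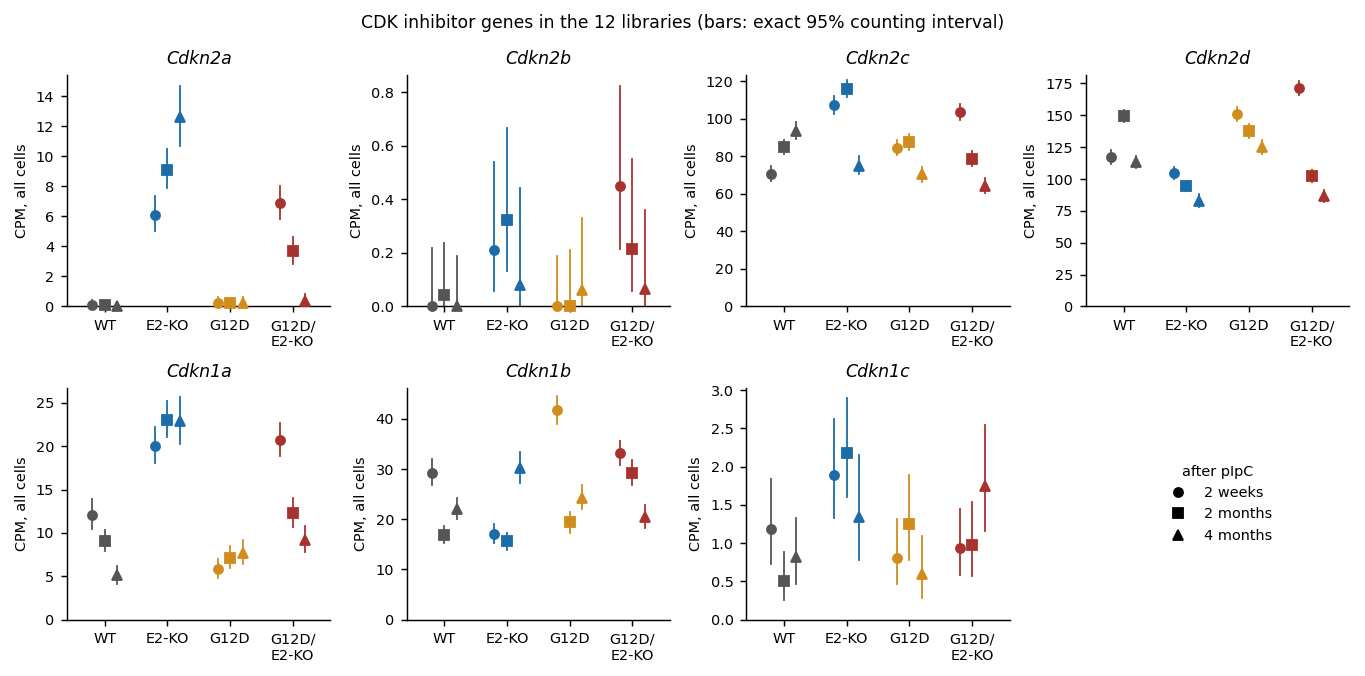
CPM of the 7 CDK inhibitor genes in each of the 12 libraries, 1 panel per gene, with genotypes on the x axis, 1 point per time point and bars for exact 95% counting intervals. Cdkn2a in E2-KO sits between 6.11 and 12.6 CPM, against at most 0.12 CPM in WT, while Cdkn2c and Cdkn1b overlap between genotypes.

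Summed over time points, E2-KO had 471 Cdkn2a UMIs against 4 in WT, a CPM ratio of 133 (exact 95% counting interval 51.5 to 489). The ratio was 51.4 at T1 and 107 at T2, and at T3, where WT was at 0, it was at least 81.9 with the WT floor set at 3 UMIs. On the NRas G12D background the ratio of G12D/E2-KO to G12D was 16.8 (9.63 to 32.0), with 27.1 at T1, 16.1 at T2 and 1.64 (0.388 to 7.89) at T3. The T3 interval includes 1, so no difference was detectable there at this depth. These intervals cover counting error only.

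The average difference between libraries with and without the Ezh2 deletion, taken over both NRas backgrounds, is called the Ezh2 effect below, and the same average for NRas is called the G12D effect. Of 12848 genes tested over all cells with edgeR's quasi-likelihood test, 6.90% were called for the Ezh2 effect at an adjusted p below 0.05, and 2 of the 6 CDK inhibitor genes that passed the filter on low counts were called. Cdkn2b did not pass that filter. Cdkn2a rose, with a log2 change of 5.43 ± 0.76 (SE) and an adjusted p of 0.00484, and Cdkn1a rose by 1.14 ± 0.23 on the log2 scale (adjusted p = 0.0181). For edgeR log2 changes, here and below, the SE is the change divided by the square root of the F statistic of the test. It is only approximate, above all for a gene near 0 in some libraries. Libraries with the deletion averaged 6.45 CPM of Cdkn2a against 0.154 CPM without it (n = 6 each), and an exact two-sided permutation test within time points gave p = 0.00926, the smallest it can give. No library without the deletion held more than 5 Cdkn2a UMIs, so the gene passed the low-count filter through the libraries where it was high, and being tested and being called by edgeR are not independent here or in the comparisons of single genotypes. The permutation test uses no filter, and with no filter the edgeR adjusted p was 0.0159. The fitted change of a gene so close to 0 depends on the prior count that the model adds. The median log2 Ezh2 effect over all genes tested was 0.0061.

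Compared one genotype at a time, Cdkn2a was the only CDK inhibitor gene called in E2-KO against WT (log2 change 7.12 ± 1.16, adjusted p = 0.0234; 1.59% of all genes called). It was likewise the only member called in G12D/E2-KO against WT (5.53 ± 1.21, adjusted p = 0.0396; 5.69% of all genes). Neither of these calls held when any 1 WT library, E2-KO T2 or G12D T2 was left out, with adjusted p from 0.0552 to 0.138 for the first and 0.0556 to 0.178 for the second, and the second was also lost without G12D T1 (0.0642), G12D T3 (0.0557) or G12D/E2-KO T2 (0.154). Both were also lost with no filter (0.0612 and 0.0762) and with the tables as deposited (0.0692 and 0.0777), the first with B lymphoid cells and DCs left out (0.0671), and the second with both libraries that share cells left out (0.0801). The Ezh2 effect on Cdkn2a was called in each of these settings. In G12D against WT no member was called by edgeR or DESeq2 (0.109% of all genes by edgeR), 0 of 6 members had an unadjusted p below 0.05, and the log2 change of Cdkn2a was 1.78 ± 1.75. The interaction, which asks whether the Ezh2 effect differs between NRas backgrounds, was called for 0.0934% of genes and for no member, with −3.37 ± 1.91 for Cdkn2a (edgeR adjusted p = 1). By edgeR 0 of 6 members had an unadjusted p below 0.05 for it, and by DESeq2 1 had, Cdkn2a, with an adjusted p of 0.882. For G12D/E2-KO against G12D the log2 change of Cdkn2a was 3.75 ± 1.01 (edgeR adjusted p = 0.135).

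For the G12D effect 5.18% of all genes and 0 of the 6 members were called by edgeR, none of them with an unadjusted p below 0.05; DESeq2 called 0 too, with Cdkn1a alone below 0.05 unadjusted. Cdkn1a had the lowest p of the members, at a log2 change of −0.48. Mean Cdkn2a was 1.94 ± 2.77 CPM (SD, n = 6) with NRas G12D and 4.66 ± 5.44 CPM without it, and the exact permutation test gave p = 0.472. With B lymphoid cells left out the log2 G12D effect on Cdkn2a was 1.70 in place of 0.10, and it was not called in either.

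Most of the Cdkn2a UMIs came from B lymphoid cells. Of 715 Cdkn2a UMIs in all libraries, 56.2% lay in this class, and in E2-KO the class held 74.1%, 83.7% and 73.6% of the UMIs of the gene at T1, T2 and T3. B lymphoid cells of WT held 2, 1 and 0 UMIs (1.46, 1.26 and 0 CPM). Those of E2-KO held 86, 164 and 117 (56.7, 86.3 and 96.2 CPM), and every E2-KO library lay far above every WT library. G12D B lymphoid cells held 0, 1 and 0 UMIs, and those of G12D/E2-KO held 8 and 23 UMIs at T1 and T2 (30.4 and 54.1 CPM). G12D/E2-KO T3 had 1 cell of the class and no Cdkn2a UMI.

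**Figure D2:**
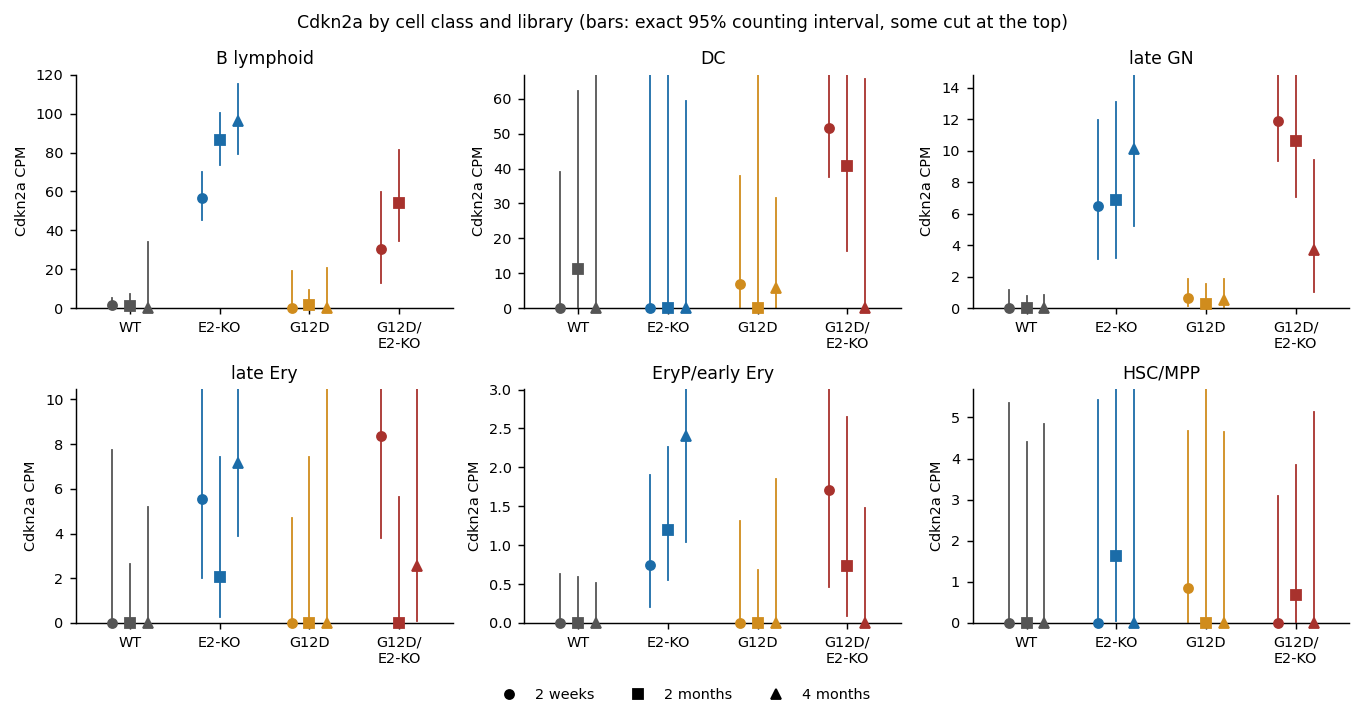
Cdkn2a CPM by cell class and library, 1 panel per class, with genotypes on the x axis and 1 point per time point; bars are exact 95% counting intervals, some cut at the top of a panel, and libraries with under 5 cells of a class are not drawn. In B lymphoid cells E2-KO sits between 56.7 and 96.2 CPM and WT at or below 1.46 CPM, and in late GN cells the E2-KO and G12D/E2-KO points lie above those of WT and G12D.

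The share of cells gated as B lymphoid also differed between libraries: it was 10.3%, 5.80% and 0.837% in WT at T1, T2 and T3, 12.6% to 14.1% in E2-KO, 1.34% to 4.56% in G12D, and 1.84%, 4.06% and 0.0382% in G12D/E2-KO. In G12D/E2-KO the class held 5.23%, 33.8% and 0% of the UMIs of Cdkn2a at T1, T2 and T3, and with B lymphoid cells left out these libraries stood at 6.59, 2.48 and 0.389 CPM. T3 was the lowest of them with and without the class. In E2-KO, 61 of 325, 110 of 416 and 81 of 326 B lymphoid cells had at least 1 Cdkn2a UMI (18.8%, 26.4% and 24.8%), with at most 7 UMIs in a cell. In E2-KO, cells with and without a UMI had like depth, with medians of 4030 and 3958 UMIs at T1, 3884 and 3900 at T2, and 3245 and 3107 at T3. In G12D/E2-KO those with a UMI were deeper, with medians of 4290.5 and 3462 at T1 (6 and 50 cells) and 2831 and 2325 at T2 (19 and 134 cells).

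Within B lymphoid cells, fitted over the 11 libraries with at least 20 such cells, 4.17% of 7176 genes were called for the Ezh2 effect, among them 3 of the 6 members tested. Cdkn2a rose by 5.57 ± 0.43 on the log2 scale (edgeR adjusted p = 1.76e-13), Cdkn1a by 0.69 ± 0.18 (0.0151) and Cdkn1c by 1.83 ± 0.53 (0.0351). B lymphoid cells of libraries without the deletion held at most 2 Cdkn2a and 5 Cdkn1c UMIs each, so both genes passed the low-count filter through the libraries with the deletion, and being tested and being called are not independent. Exact two-sided permutation tests within time points over the 11 libraries, which use no such filter, gave p = 0.00926 for Cdkn2a, the smallest of 108 arrangements, and p = 0.0278 for Cdkn1c. These p-values are not adjusted, and the tests were run only on members that edgeR had already called. DESeq2 called Cdkn1a alone (adjusted p = 0.0345) and gave Cdkn2a and Cdkn1c no adjusted p. The call for Cdkn1a was lost without WT T1, G12D T2, or G12D/E2-KO T1 or T2 (0.0501 to 0.0838). That for Cdkn1c was lost with no replicate block for time (0.0591) and without G12D T1 or G12D/E2-KO T1 or T2 (0.062 to 0.12), and the gene passed the low-count filter in only some of the other fits. In E2-KO against WT (2.56% of genes called), Cdkn2a, Cdkn1a and Cdkn1c were higher, and Cdkn2d was lower with a log2 change of −0.64 (adjusted p = 0.0357). The calls for Cdkn2d and Cdkn1c were lost with no replicate block for time (adjusted p = 0.152 and 0.0892), and DESeq2 called Cdkn2a alone. Cdkn2d was also lost without any 1 WT or E2-KO library (0.0526 to 0.268), Cdkn1a without any 1 WT library or E2-KO T1 (0.0566 to 0.117), and Cdkn1c without WT T3 (0.0816), while it was not tested without any other 1 of these libraries. In G12D/E2-KO against WT (2.10% called), Cdkn2a alone was called among the members, at 4.92 ± 0.59 (adjusted p = 1.81e-07). Ezh2 itself stood at 371 to 407 CPM in WT B lymphoid cells and 72.1 to 82.2 CPM in those of E2-KO, 68.3 and 96.5 CPM in those of G12D/E2-KO. The G12D effect and the interaction were called for no member in this class, beside 0.251% and 0.0836% of all genes. For these 2 and 0 members had an unadjusted edgeR p below 0.05, beside 7.57% and 4.74% of all genes, and among members the G12D effect with the lowest adjusted p was that of Cdkn1b (log2 change 0.84, adjusted p = 0.206).

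Cdkn2a was not confined to B lymphoid cells. In late GN cells, WT had no UMI at any time point, and E2-KO had 10, 9 and 12 (6.49, 6.89 and 10.1 CPM). G12D had 3, 1 and 2 UMIs (0.62, 0.27 and 0.51 CPM), and G12D/E2-KO had 75, 28 and 4 (11.9, 10.6 and 3.68 CPM). All 6 libraries with the deletion lay above all 6 without it, and the Ezh2 effect was called (5.84 ± 0.54, edgeR adjusted p = 3.85e-07; 12.2% of 8708 genes called). Cdkn2a passed the low-count filter here too through the libraries with the deletion, and the exact permutation test, which uses no filter, gave p = 0.00926 (means 8.28 and 0.235 CPM, n = 6 each), the smallest it can give. That permutation p is not adjusted, and the test was chosen after the edgeR call. The CPM ratio of G12D/E2-KO to G12D was 22.0 (9.76 to 61.2), and that of E2-KO to WT at least 31.9. With the tables as deposited, in which the shared cells count in both G12D T1 and G12D/E2-KO T1, the adjusted p was 0.0768.

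In late erythroid cells (late Ery) E2-KO held 6, 2 and 14 Cdkn2a UMIs and G12D/E2-KO 9, 0 and 1, with 0 in all WT and G12D libraries. In erythroid progenitors and early erythroid cells (together EryP) E2-KO held 4, 9 and 8 and G12D/E2-KO 4, 2 and 0, again with 0 in all WT and G12D libraries. The same was seen at lower counts in granulocyte-monocyte progenitors and early granulocytes (GMP/early GN; E2-KO 5, 4 and 4, G12D/E2-KO 2, 1 and 0) and in promonocytes (ProMo; E2-KO 2, 2 and 1, G12D/E2-KO 5, 2 and 0). Cdkn2a failed the low-count filter in these classes. Exact permutation tests gave p = 0.0278 in each of the 4, and 0.211 after adjustment over 19 pairs of a class and a filtered member and both effects. No single pair could pass this adjustment even at the smallest p the design allows, so the adjusted values cannot decide whether the levels differed. The lowest p of this family was that of Cdkn1c in late Ery cells, described below. Stem cells and multipotent progenitors (HSC/MPP) held 3 Cdkn2a UMIs in all libraries together. In DCs the gene was seen mainly in G12D/E2-KO, with 44 UMIs in 146 cells at T1, 7 in 46 cells at T2 and 0 in 16 cells at T3, while the 17, 12 and 18 DCs of E2-KO held none. The ratio of G12D/E2-KO to G12D in DCs was 8.94 (2.35 to 75.8), resting on 51 against 2 UMIs.

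Free RNA can give UMIs of a gene in cells that do not express it, so Cdkn2a was set beside the summed UMIs of 8 B lineage markers. In E2-KO B lymphoid cells there were 4.24, 6.29 and 8.83 Cdkn2a UMIs per 1000 marker UMIs. In E2-KO late GN cells there were 82.0, 96.8 and 146, far above the ratio in the B lymphoid cells of the same library, and in late GN cells of G12D/E2-KO 647, 329 and 250. In E2-KO GMP/early GN cells the ratios were 7.96, 7.03 and 26.7, on 4 or 5 Cdkn2a UMIs each. At T1 and T2 they stood near those of B lymphoid cells. E2-KO EryP cells had 9.66, 15.96 and 38.1, on 4, 9 and 8 UMIs. ProMo cells of E2-KO had 21.7, 16.5 and 16.1, on 2, 2 and 1 UMIs, and late Ery cells 61.9, 27.8 and 88.6, on 6, 2 and 14. The part of free RNA in the UMIs of these 4 classes was not tested. DCs of G12D/E2-KO had 638 and 538 at T1 and T2. The ratio bears only on free RNA from B lymphoid cells. In G12D/E2-KO these held just 5.23%, 33.8% and 0% of the Cdkn2a UMIs at T1, T2 and T3. Free RNA from DCs or other cells was not tested. With B lymphoid cells left out, libraries with the deletion averaged 2.75 CPM and those without it 0.119 CPM, and with DCs left out too 2.39 and 0.0943 CPM; the exact permutation p remained 0.00926 in both.

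Cdkn2b encodes p15Ink4b, the INK4 protein known as a target of TGF-beta signalling, and it was close to undetected: 29 UMIs in 12 libraries. WT held 0, 1 and 0 UMIs, E2-KO 4, 7 and 1, G12D 0, 0 and 1, and G12D/E2-KO 10, 4 and 1. Each library with the deletion had at least 1 UMI, and none without it had more than 1. Of the 4 UMIs of G12D/E2-KO T2, 3 lay in a single DC. Mean levels were 0.224 CPM with the deletion and 0.0169 CPM without it (exact permutation p = 0.00926, the smallest the design allows), with 12 against 1 UMIs for E2-KO against WT (ratio 13.5, interval 2.00 to 578) and 15 against 1 for G12D/E2-KO against G12D (14.4, 2.22 to 607). With the tables as deposited p was 0.037. The G12D effect had an exact permutation p of 0.861. Of the other neighbours of the locus, Mtap had a log2 Ezh2 effect of 0.06 (adjusted p = 0.835) and Dmrta1 was not tested.

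Cdkn2c (p18Ink4c; ENSMUSG00000028551, chr4:109660876-109667189) and Cdkn2d (p19Ink4d; ENSMUSG00000096472, chr9:21288410-21291407) were abundant in every genotype. Cdkn2c stood at 70.7, 84.8 and 93.7 CPM in WT at T1, T2 and T3, and at 107, 116 and 75.1 CPM in E2-KO. It stood at 84.6, 87.7 and 70.5 CPM in G12D and 104, 78.8 and 64.4 CPM in G12D/E2-KO. The genotypes overlapped, and the log2 Ezh2 effect was 0.07. Cdkn2d stood at 117, 149 and 113 CPM in WT and 105, 94.4 and 82.8 CPM in E2-KO, which lay below all WT libraries. In G12D it was at 151, 138 and 125 CPM and in G12D/E2-KO at 172, 103 and 86.4 CPM, overlapping one another. Its log2 Ezh2 effect was −0.38 ± 0.16 (edgeR adjusted p = 0.163), and it was called without G12D/E2-KO T1 (−0.57, adjusted p = 0.009) and with both libraries that share cells left out (−0.55, adjusted p = 0.026).

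Levels of these 2 genes also differed by cell class. In WT, Cdkn2c was highest in late Ery (177 ± 34.6 CPM, SD, n = 3) and B lymphoid cells (171 ± 44.4), which overlapped each other, then came late GN (113 ± 19.8) and EryP (73.5), and each of these steps down was free of overlap. The remaining classes ran from 66.2 CPM in ProMo to 43.0 ± 10.3 in HSC/MPP, each overlapping its neighbour. Cdkn2d was at 335 ± 26.98 CPM in late Ery, 323 ± 49.8 in late GN and 303 ± 74.5 in B lymphoid cells, which overlapped one another and lay above megakaryocytes (Meg; 125 ± 6.93). EryP had the lowest Cdkn2d of all 9 classes (20.5 ± 2.71 CPM), below every other class without overlap, so that within the erythroid line the gene was lower in EryP than in late cells. With clusters in place of the gate, Cdkn2d was at 259 CPM in late Ery and late GN was then highest.

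**Figure D3:**
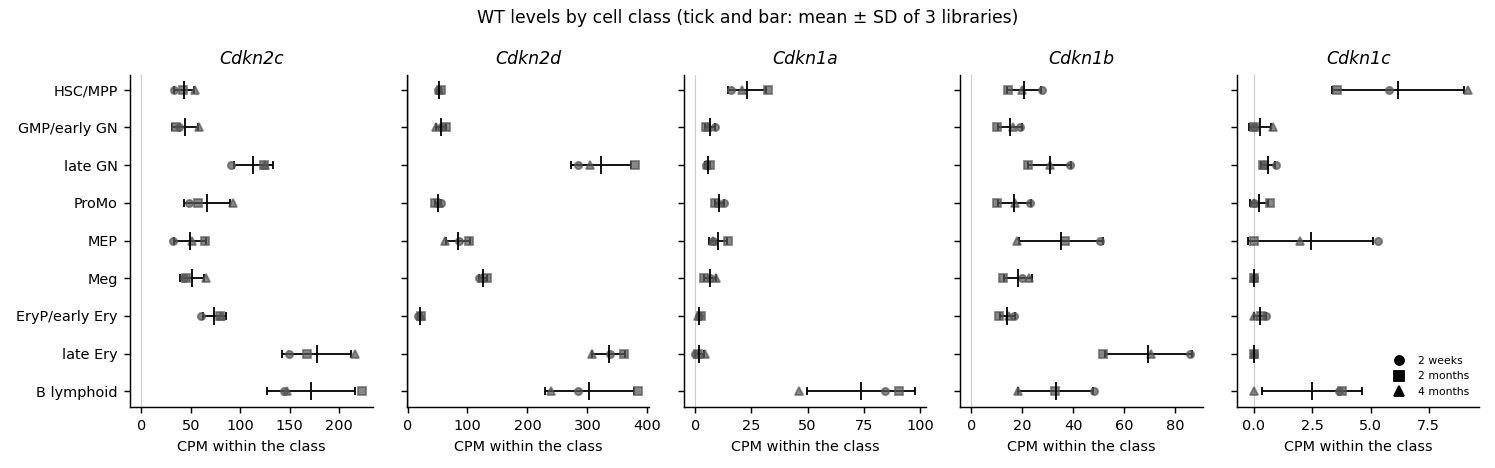
CPM of CDK inhibitor genes in the 9 cell classes that each WT library filled with at least 20 cells, for the 5 genes with more than a few UMIs: classes are rows, the x axis is CPM, points are the 3 time points, and ticks and bars are their mean ± SD. Cdkn2c and Cdkn2d are highest in late Ery, B lymphoid and late GN cells, Cdkn1a in B lymphoid cells and Cdkn1b in late Ery cells.

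Within the 7 classes that all 12 libraries filled with at least 20 cells, 1 of the INK4 genes other than Cdkn2a was called for the Ezh2 effect in 1 class. Cdkn2c in GMP/early GN cells was at 38.4, 34.7 and 58.8 CPM in WT and 73.1, 82.7 and 53.4 in E2-KO, and at 35.3, 41.6 and 44.0 in G12D and 69.9, 59.7 and 56.3 in G12D/E2-KO. E2-KO and WT overlapped at T3, and G12D/E2-KO lay above G12D throughout. Cdkn2c rose there by 0.63 ± 0.16 on the log2 scale (edgeR adjusted p = 0.0189; 11.0% of 10320 genes called), a call lost with the tables as deposited (0.055), with clusters in place of the gate (0.0768), and without WT T1 or T2, G12D T1 or T2, or G12D/E2-KO T2 (0.0501 to 0.0588).

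Cdkn1a (p21; ENSMUSG00000023067, chr17:29090976-29100727, plus strand) differed by genotype and by class. The stretch before its upstream RefSeq start is shown because it holds the only p53 element found in any member window, a pair of adjacent half-sites of 10 bases with the C and G of each core kept and at most 1 mismatch, here in capitals (chr17:29090729-29090978, GRCm38.p6, plus strand).
Cdkn1a, upstream start: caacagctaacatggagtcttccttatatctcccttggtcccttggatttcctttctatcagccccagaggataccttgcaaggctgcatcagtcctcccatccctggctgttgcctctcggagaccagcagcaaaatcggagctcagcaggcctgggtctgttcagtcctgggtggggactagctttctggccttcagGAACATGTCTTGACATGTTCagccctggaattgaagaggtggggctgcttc
The element begins 51 bases before the start. Of all 32851 windows, 22 (0.067%) hold such an element by these rules, and of 15 genes in the p53 list with a window, 1 does.

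Over all cells Cdkn1a was at 12.1, 9.09 and 5.12 CPM in WT at T1, T2 and T3, and at 20.1, 23.1 and 22.9 CPM in E2-KO. It was at 5.83, 7.11 and 7.72 CPM in G12D and 20.7, 12.3 and 9.20 CPM in G12D/E2-KO. Each genotype with the deletion lay above its counterpart without overlap. The Ezh2 effect given above was called, while E2-KO against WT alone missed the threshold (log2 change 1.39, edgeR adjusted p = 0.0694). B lymphoid cells held 32.9% of all Cdkn1a UMIs, and with them left out the Ezh2 effect was 1.06 (adjusted p = 0.0231). The call over all cells, B lymphoid cells included, was lost when WT T3, E2-KO T3, G12D T1, G12D T2 or G12D/E2-KO T2 was left out, with adjusted p from 0.0502 to 0.0538.

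By class, Cdkn1a in WT was highest in B lymphoid cells (73.7 ± 24.1 CPM), followed by HSC/MPP (23.1 ± 8.33), and neither overlapped the class next to it. ProMo (10.8 CPM) and MEP (megakaryocyte-erythroid progenitors; 10.2) came next, and late Ery (1.89) and EryP (1.87) were lowest. In B lymphoid cells it stood at 84.4, 90.6 and 46.1 CPM in WT and at 138, 144 and 118 CPM in E2-KO, with no overlap. G12D was at 46.4, 73.2 and 66.6 CPM and G12D/E2-KO at 94.9 and 89.4 CPM, also with no overlap.

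In late Ery cells WT was at 0, 1.44 and 4.23 CPM and E2-KO at 24.9, 19.5 and 32.6 CPM; G12D was at 0, 0 and 10.7 CPM and G12D/E2-KO at 82.6, 10.7 and 10.2 CPM. E2-KO lay above WT in full, and G12D/E2-KO overlapped G12D at T3. The summed counts were 110 against 5 UMIs (ratio 14.1, 5.86 to 44.3) and 100 against 3 UMIs (24.6, 8.17 to 121). Of the 100, 89 came from G12D/E2-KO T1, and with T1 left out the second ratio was 2.73 (0.721 to 15.2), on 11 against 3 UMIs, an interval that includes 1. The log2 Ezh2 effect was 3.92 ± 0.70 (edgeR adjusted p = 0.0111; 3.72% of 4242 genes called), and 3.05 without G12D/E2-KO T1 (adjusted p = 0.00165). With at most 3 UMIs in each library without the deletion, Cdkn1a too passed the filter here through the libraries with it, and the exact permutation test, which uses no filter, gave p = 0.0185 (means 30.1 and 2.72 CPM, n = 6 each). This permutation p is likewise unadjusted and was computed after the edgeR call. The call was lost with the tables as deposited (2.20, adjusted p = 0.1005) and without E2-KO T3 (adjusted p = 0.0608). Beside the UMIs of the 8 B lineage markers, E2-KO late Ery cells held 278, 264 and 405 Cdkn1a UMIs per 1000, against 10.3 to 10.9 in the B lymphoid cells of the same libraries. This ratio bears only on free RNA from B lymphoid cells, which held 54.9%, 55.0% and 49.8% of the Cdkn1a UMIs of E2-KO at T1, T2 and T3. Free RNA from other cells was not tested.

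**Figure D4:**
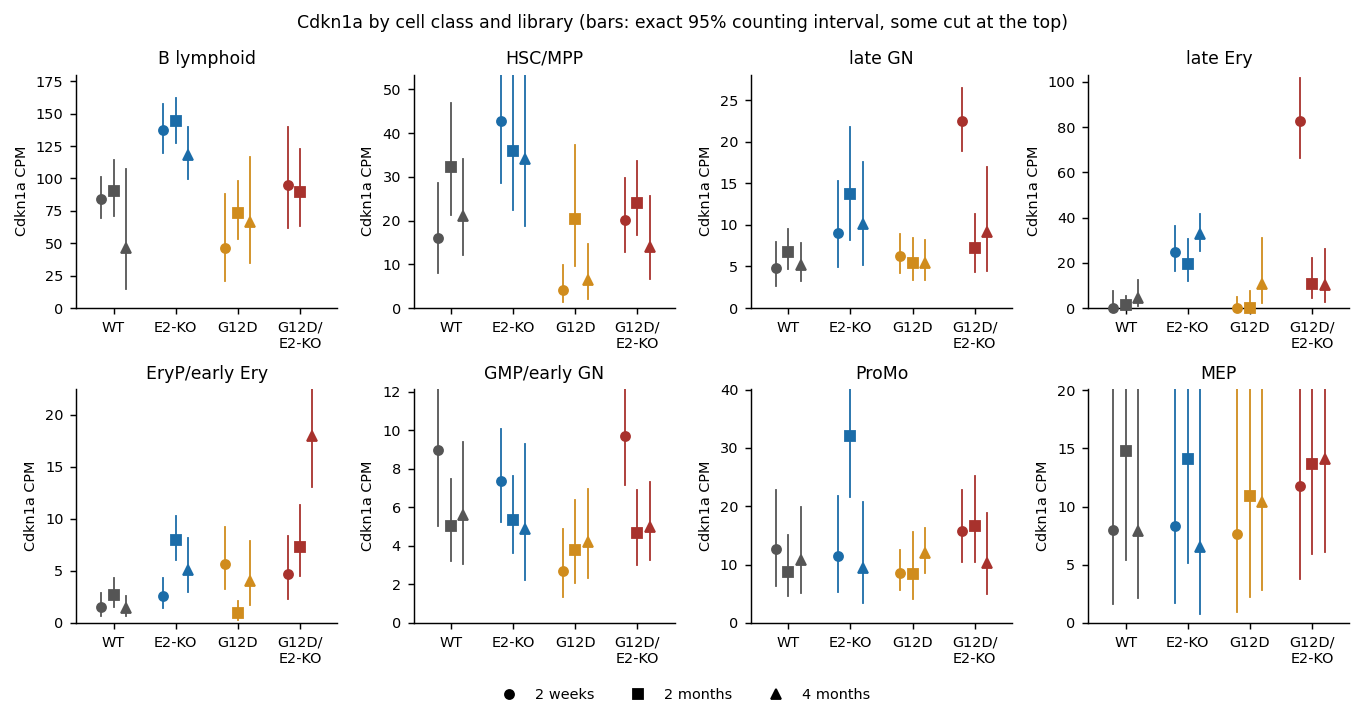
Cdkn1a CPM by cell class and library, drawn as for Cdkn2a: genotypes on the x axis, 1 point per time point, bars for exact 95% counting intervals. In late Ery cells E2-KO sits between 19.5 and 32.6 CPM and WT at or below 4.23 CPM, and in B lymphoid cells the levels are high in every genotype.

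In late GN cells Cdkn1a was at 4.78, 6.75 and 5.19 CPM in WT, 9.08, 13.8 and 10.1 in E2-KO, 6.24, 5.47 and 5.39 in G12D, and 22.5, 7.22 and 9.20 in G12D/E2-KO. All libraries with the deletion lay above all without it. The Ezh2 effect was 0.99 ± 0.28 (edgeR adjusted p = 0.0305), was 0.52 without G12D/E2-KO T1, and lost its call without WT T1 or T3, E2-KO T2 or T3, G12D T1 or T2, or G12D/E2-KO T1 (adjusted p from 0.0634 to 0.122). It was also lost with the tables as deposited (0.238) and with clusters in place of the gate (0.0711). HSC/MPP had Cdkn1a at 15.96, 32.2 and 21.02 CPM in WT, 42.7, 35.9 and 34.2 in E2-KO, 4.19, 20.3 and 6.31 in G12D and 20.0, 24.1 and 13.9 in G12D/E2-KO. E2-KO lay above WT, and the G12D and G12D/E2-KO ranges overlapped. Neither the Ezh2 effect (0.96, adjusted p = 0.0567; 1.15% of 7534 genes called) nor the G12D effect (−1.13, adjusted p = 0.0754) passed the threshold, and the latter was called without E2-KO T2, G12D T2 or G12D/E2-KO T3.

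In the other classes no member was called for the Ezh2 effect by edgeR: ProMo (5.70% of genes called), MEP (0.938%) and EryP (6.31%), where Cdkn1a had a log2 change of 1.59 (adjusted p = 0.0925). Across the 7 classes the Ezh2 effect was thus called for 4 of 28 pairs of a member and a class fitted, all higher with the deletion, beside 6.63% of 53812 tests over all genes and classes. Of the 4, Cdkn2a in late GN cells and Cdkn1a in late Ery cells passed the low-count filter through the libraries with the deletion. Their calls and their direction are therefore not independent of that filter. The G12D effect was called for 0 pairs, beside 0.162% of the 53812 tests. An unadjusted edgeR p below 0.05 was found for 10 of the 28 pairs for the Ezh2 effect, beside 21.7% of all tests, and for 4 for the G12D effect, beside 7.65%.

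Cdkn1b (p27; ENSMUSG00000003031, chr6:134920401-134925513) was at 29.3, 16.9 and 22.1 CPM in WT, 17.1, 15.6 and 30.2 in E2-KO, 41.7, 19.4 and 24.3 in G12D and 33.1, 29.2 and 20.4 in G12D/E2-KO. All 4 genotypes overlapped, with a log2 Ezh2 effect of −0.08 and a G12D effect of 0.36. Its highest class in WT was late Ery (69.4 ± 17.1 CPM), above MEP (35.1), B lymphoid cells (33.1) and late GN (30.7) without overlap, and EryP was lowest at 14.1 CPM. In CPM, late erythroid cells thus had more Cdkn1b, Cdkn2c and Cdkn2d than EryP and a Cdkn1a level as low as theirs. Over all libraries, late Ery cells held a median of 3662 UMIs and EryP cells 11908. In WT late Ery cells the marker genes of the class, haemoglobin genes among them, took 530754 to 624314 CPM. Levels per cell were not compared and need not follow the same order.

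Cdkn1c (p57; ENSMUSG00000037664, chr7:143458339-143461050) was sparse, with 262 UMIs in all. It was at 1.19, 0.51 and 0.82 CPM in WT, 1.90, 2.18 and 1.35 in E2-KO, 0.81, 1.252 and 0.59 in G12D and 0.94, 0.97 and 1.75 in G12D/E2-KO. E2-KO lay above WT, and G12D/E2-KO overlapped G12D; the log2 Ezh2 effect was 0.73 ± 0.28 (edgeR adjusted p = 0.135). In WT it was highest in HSC/MPP (6.19 ± 2.83 CPM), ahead of B lymphoid cells (2.47) and MEP (2.43), but on 14, 8 and 3 UMIs and with overlapping ranges. B lymphoid cells held 3.64, 3.77 and 0 CPM in WT, 14.5, 16.3 and 6.58 in E2-KO, 0, 4.88 and 11.1 in G12D and 18.98 and 14.1 in G12D/E2-KO. Both genotypes with the deletion lay above their counterparts, on 61 against 8 UMIs (ratio 3.75, 1.79 to 9.07) and 11 against 5 (3.15, 1.01 to 11.6). In late Ery cells Cdkn1c had 2, 2 and 1 UMIs in E2-KO and 4, 1 and 2 in G12D/E2-KO, and 0 in all 6 libraries without the deletion. The exact permutation p there was 0.00926, the smallest possible, and 0.211 after adjustment, so the difference did not pass the correction. No single pair could pass it even at the smallest possible p, so the adjusted value cannot decide whether the levels differed. B lymphoid cells held 61.1%, 65.96% and 47.1% of the Cdkn1c UMIs of E2-KO at T1, T2 and T3. Per 1000 B lineage marker UMIs there were 20.6, 27.8 and 6.33 Cdkn1c UMIs in E2-KO late Ery cells and 1.08, 1.19 and 0.604 in the B lymphoid cells, but the former rest on 1 or 2 UMIs each, and the part of free RNA in them was not tested.

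Cells of each class and library were split at the median share of UMIs in 44 S and G2/M genes, and the levels of the members in cells above the median (more cycling) and below it were compared with an exact two-sided sign-flip permutation test over libraries. The same test was run on every other gene with enough UMIs, leaving out the 44 genes of the split, and p-values were adjusted over all 50004 pairs of a gene and a class. Of 28 pairs of a member and a class, 17 were called, all higher in the more cycling cells, while 29.8% of all pairs were called and 20.8% were called higher. Cdkn2c and Cdkn2d were higher in all 7 classes, by 0.83 to 2.21 and by 0.64 to 3.05 on the log2 scale. In late Ery cells the differences were 2.21 ± 0.81 and 3.05 ± 1.28 (SD, n = 12), higher in 12 of 12 libraries, with an exact p = 0.000488, the smallest possible. In late Ery cells, however, 79.2% of all genes were called higher, with a median of 1.42 over all genes, against medians of −0.0128 to 0.20 in the other 6 classes.

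**Figure D5:**
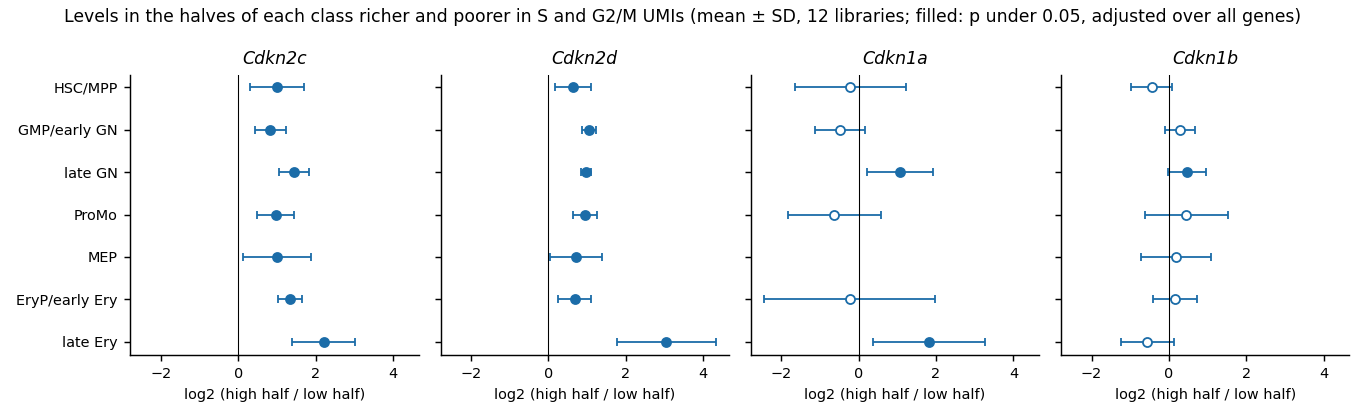
Log2 ratio of CPM between the more and the less cycling cells of each class, as the mean ± SD of 12 libraries (points and bars; filled points have a p below 0.05 after adjustment over all genes), with classes as rows and 1 panel for each of 4 genes. Cdkn2c and Cdkn2d lie above 0 in every class on average, and Cdkn1b lies on either side of 0 by class, with a filled point in late GN cells alone.

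The CIP/KIP genes were less uniform. Cdkn1a was higher in the more cycling cells of late GN (1.07 ± 0.85) and late Ery (1.82 ± 1.45), and Cdkn1b in those of late GN (0.47). Cdkn1b had negative differences in HSC/MPP (−0.44 ± 0.53) and late Ery (−0.55 ± 0.67, lower in 11 of 12 libraries), as had Cdkn1a in GMP/early GN (−0.48), but none of these was called (exact permutation p adjusted over all genes from 0.0542 to 0.0675). All 3 passed the threshold with the planned adjustment over the 28 member pairs alone. In B lymphoid cells, over 11 libraries, 8.12% of 8252 genes were called, among them Cdkn2c (1.53) and Cdkn2d (1.98), both higher in the more cycling cells. For Cdkn2a the difference was not called (0.60 ± 0.64, adjusted exact permutation p = 0.113), and 6 of the 11 libraries held only 0 to 2 of its UMIs and carry little information on it. It passed the threshold only with adjustment over the members of this class alone, a class outside the planned comparison. Its UMIs in the more and less cycling B lymphoid cells of E2-KO were 57 and 29 at T1, 103 and 61 at T2, and 71 and 46 at T3. The cells above and below the median also differed in depth, for example with a median of 6274 against 3890 UMIs per cell in HSC/MPP, and with every cell thinned to 1438 UMIs 14 member pairs had enough UMIs, of which 10 were higher and 1 lower after adjustment over these pairs alone.

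Other genes of the same pathways were counted in lists, to be read against the 6.90% of all genes called for the Ezh2 effect and the 5.18% called for the G12D effect. Of 10 CDKs and G1 cyclins tested, 0 were called for the Ezh2 effect, and of 9 genes for the turnover of p27 and p21, 0. Of 11 pocket protein and E2F genes 1 was called, E2f7, a repressive E2F factor (log2 change 0.88). Of 16 tested genes of the p53 pathway 4 rose and none fell: Pmaip1 (1.57), which encodes the BH3-only protein NOXA, Zmat3 (1.35), Phlda3 (0.98) and the death receptor gene Fas (0.75). Of 17 Polycomb genes 4 rose and 2 fell, among them Bmi1 (2.03), a subunit of Polycomb complex PRC1, Phf19 (0.69), Cbx8 (−0.67) and the deleted gene Ezh2 (−1.99). Bmi1 stood at 15.5 to 21.9 CPM in WT and G12D and 65.5 to 91.7 CPM in the genotypes with the deletion. Cdkn2a was also higher in these genotypes, though at T3 no difference between G12D/E2-KO and G12D was detectable. A link between Bmi1 and Cdkn2a was not tested. Of the 44 S and G2/M genes 1 rose, Uhrf1 (0.42). For the G12D effect the cyclin genes Ccnd1 (1.04) and Ccne1 (−0.80) and the S phase genes Nasp (−0.43) and Clspn (−0.54) were called, and none in the other lists.

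As a description only, genes whose levels followed those of each member most closely were taken over the 21 sums of a WT library and a class, which share their libraries, among 8825 genes. For Cdkn2c these were Ube2c (r = 0.90), Ccnb2 (0.88) and Mki67 (0.87), all expressed in dividing cells. For Cdkn2d they were Tcp11l2 (0.94), 1810058I24Rik (0.92) and Hipk1 (0.91), and for Cdkn1a they were 1700025G04Rik (0.93), Neurl3 (0.92) and Adamts10 (0.92). For Cdkn1b they included C1qc (0.82) and Cdc42ep3 (0.82), and for Cdkn1c they were Myl10 (0.88), Ltc4s (0.86) and Cnrip1 (0.86). The Cdkn1c values rest on few WT UMIs, with 14 in HSC/MPP, 7 in late GN and at most 5 in any other of these classes.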

How the data were processed

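The deposited values are UMI counts: the authors aligned 10x Genomics 3′ reads to mm10 with Cell Ranger, removed cells with over 10% of UMIs from mitochondrial genes and doublets scored by Scrublet, and deposited whole-number counts per gene and cell, 1 table per library. No further cell filter or doublet caller was applied. A count of 3 was used as the floor for a library or sum at 0, and counting intervals are exact at 95%.

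Cells of all 66 pairs of libraries were compared by cosine similarity over 8000 genes (limit 0.9), and a cell found in 2 tables (G12D T1 and G12D/E2-KO T1) was counted once, in the G12D/E2-KO table. Each cell took the class whose marker list it scored highest on, with a margin of 0.25 over the next list; 10.1% of cells stayed without a class. In the alternative, WT cells were clustered (leidenalg 0.10.2) and mutant cells took the class of their nearest WT cell. UMI counts were summed per library, and per library and class, and tested with edgeR 4.0.16 (R 4.3.3; TMM, filterByExpr with a minimum count of 10, robust quasi-likelihood fit, genotype plus time point), two-sided, with Benjamini-Hochberg adjustment over all genes tested. The same method was tested on simulated data with 12848 genes for the Ezh2 effect over all cells: it recovered 98% of genes changed 2-fold and 100% of those changed 4-fold, with 12 false calls. This recovery was counted by fold alone, and how it depends on the UMIs of a gene was not tested. The changed genes were drawn only from those above a minimum mean count, and all genes were simulated with the same dispersion. The recovery therefore does not cover sparse genes or genes that vary more between libraries. DESeq2 1.42.0 was an alternative. Members that failed the filter were tested by exact permutation of libraries within time points (scipy 1.17.1). The fits within B lymphoid cells, a class that did not reach the minimum of cells in every library, were added after seeing the data. Other alternatives were RLE scaling, no filter, no replicate block, the tables as deposited, abundant genes left out, each library left out in turn and, added after seeing the data, B lymphoid cells, DCs or the libraries that share cells left out, permutation tests of members that passed the filter of a class through the libraries with the deletion, the adjustment of the cycling comparison over all genes, and the late Ery ratio of Cdkn1a with a time point left out.

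Time points carry the numbers that libraries of different genotypes share in the labels. Over 7083 genes, deviations from the genotype mean correlated above 0.1 in 11 of 18 pairs of the same time point (−0.27 to 0.50), and 8 of 12 libraries correlated best with their own time point; the time point is kept as the block because it is the design. The study's own tests over single cells were not used, since cells are not replicates.

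The 7 genes are described in full. Of each pathway list, the genes called for either effect over all cells were named, at most the 4 with the largest change; and for each member with a mean of at least 1 CPM, the 3 genes with the highest Pearson r of log2(CPM + 1), of which 1 is not reported here. The rule that names the members uses no measured value, but the members and lists were chosen with earlier results of these data known, so their counts are no independent support. Coordinates are from GENCODE vM21 on GRCm38 and promoter windows from RefSeq (GRCm38.p6), which held windows for 6 of the 7 genes; none was printed for Cdkn1c.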

Additional observations from a re-analysis of the deposited data

How the results depend on the processing

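The Ezh2 effect on Cdkn2a over all cells was called under every alternative run, with log2 changes from 4.43 (tables as deposited) to 5.97 (B lymphoid cells and DCs left out). Over all cells, the time block changed no count of called members: with no replicate block there was 1 for E2-KO against WT, 1 for G12D/E2-KO against WT and 2 for the Ezh2 effect. In B lymphoid cells, with no replicate block E2-KO against WT had 2 called members in place of 4, and the Ezh2 effect on Cdkn1c was 1.83 (adjusted p = 0.0591).

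Of the 6 members tested, 1 was called for E2-KO against WT, against 2 with DESeq2, 2 with both libraries that share cells left out, 0 with no filter, 0 with the tables as deposited, 0 with B lymphoid cells and DCs left out, and 0 to 2 with single libraries left out. For G12D/E2-KO against WT the count of 1 became 0 with no filter, 0 with the tables as deposited and 0 with both sharing libraries left out, and ran from 0 to 1 with single libraries left out. The Ezh2 effect over all cells had 2 calls, and 1 to 2 with single libraries left out. Within the 7 classes the 4 calls of the Ezh2 effect became 0 with the tables as deposited and ran from 2 to 5 without single libraries, and the G12D effect had 0 to 1. In B lymphoid cells the 3 calls became 1 (Cdkn1a) with DESeq2, which gave Cdkn2a and Cdkn1c no adjusted p, and ran from 1 to 3 without single libraries. Between more and less cycling cells, 17 member pairs were called after adjustment over all genes, as added after seeing the data. With the adjustment over the 28 pairs alone there were 21 (18 higher and 3 lower), 17 (all higher) without WT T3 or E2-KO T1, and 11 of the 14 pairs tested after thinning to 1438 UMIs per cell. Cdkn2d in WT late Ery cells was at 258.8 CPM with clusters in place of the gate.

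Values that changed sign were all of effects that were not called. With single libraries left out, the log2 Ezh2 effect ran from −0.0754 to 0.21 for Cdkn2c (−0.0613 without WT T1) and from −0.36 to 0.0973 for Cdkn1b (0.04 and 0.0607 without G12D T1 and G12D/E2-KO T3), and the log2 G12D effect from −0.39 to 0.64 for Cdkn2a (−0.36 without G12D/E2-KO T1, −0.0638 without WT T3, −0.0217 without E2-KO T2) and from −0.29 to 0.0033 for Cdkn2c. With both sharing libraries left out, the Ezh2 effect on Cdkn2c was −0.0477, and the G12D effect was −0.56 for Cdkn2a and −0.0101 for Cdkn2d. With B lymphoid cells left out, and with DCs left out too, the G12D effect became 0.0954 and 0.0911 for Cdkn1a and 0.23 and 0.21 for Cdkn1c. In CPM, the G12D effect on Cdkn2a became 0.511 and 0.132 under the same choices, and that on Cdkn2b ran from −0.0415 to 0.065 without single libraries and was −0.0245 with both sharing libraries left out. The causes were not tested. Depth limits Cdkn2b, Cdkn1c and Cdkn2a outside B lymphoid cells, where a library holds few UMIs, and 1 library per genotype and time point limits every test.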
